A study of Homo sapiens with 6 samples.

Results

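The RNAs described here are the long noncoding RNA genes of HCT116 cells whose symbol is LINC followed by a number or ends in -AS1, and whose FPKM averaged at least 1 over the 6 libraries. The members were thus selected on their symbol and on that mean level. HCT116 is a human colorectal carcinoma cell line. Of the 26255 gene symbols measured, 1756 had such a symbol, and 284 of them (16.2%) reached that mean level. They comprised 92 LINC RNAs and 192 -AS1 RNAs. EPB41L4A-AS1 was left out by the rule. A further 754 symbols of this kind were listed at 0 in every library, and 718 were listed above 0 in at least 1 library with a mean under 1. Because the level over all 6 libraries chose the members, their level is a description and not a finding.

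Poly(A) RNA of 3 groups was sequenced, with 2 libraries in each. The parent group was HCT116 cells with no siRNA named in its label. The other groups were the same line labelled siLINC01534-1 and siLINC01534-2, which are siRNAs against different sites of the long noncoding RNA LINC01534. No source used here describes the parent cells of this experiment as transfected, or gives the time of harvest, so transfection and knockdown cannot be told apart. LINC01534 itself was nearly absent: its values corresponded to 1 and 2 reads in the parent libraries, 0 and 1 read in those labelled siLINC01534-1, and 2 and 2 reads in those labelled siLINC01534-2. It therefore did not check the labels, and groups are named here by their labels only. Of 7 epithelial markers, 6 passed the level filter, with EPCAM between 199 and 204 FPKM, and LGALS4 did not exceed 0.369 FPKM. KRT8, KRT18 and KRT19 were lower with siLINC01534-1 (log2 changes of -0.34, -0.21 and -0.18), and KRT19 and CDH1 were higher with siLINC01534-2 (0.21 and 0.57), all at an adjusted p under 0.05 (limma), and the part of these shifts in the results was not tested. Of 9 markers of blood, fibroblasts, endothelium and liver, COL1A1 alone exceeded 1 FPKM. It ranged from 3.02 to 5.79 FPKM and was higher with siLINC01534-1, by 0.68 on the log2 scale (adjusted p = 0.00249, limma), and its part in the results was not tested. The sample titles number 2 replicates per group without calling them separate cultures, and p-values measure the spread between them only.

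FPKM is the number of fragments per kilobase of transcript scaled to the number of mapped fragments, which allows for transcript length and library depth. Levels of overlapping or near-identical genes also rest on how reads were assigned, which is not given in the sources used here. What 1 read was worth in FPKM ranged between libraries from 0.967 to 1.16 times that in the first parent library. All tests were made with limma on log2(FPKM + 1) over the 12203 genes whose mean reached 1 FPKM, two-sided, and the adjusted p is the Benjamini-Hochberg value over all of them with a threshold of 0.05. Both siRNA comparisons use the same parent libraries. A log2 change on this scale understates the change of RNAs near 1 FPKM.

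As background, long noncoding RNAs are transcripts, mostly spliced and polyadenylated, that do not carry a long reading frame. A LINC symbol marks a gene that lies between coding genes, and an -AS1 symbol marks one transcribed from the strand opposite the gene it is named after. Some act in the nucleus on neighbouring genes, and others bind proteins or microRNAs in the cytoplasm. Many of the -AS1 RNAs start close to the start of a coding gene and run away from it, and are then called divergent transcripts. For most members no function is established.

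The names did not all hold. Of the 283 members with a RefSeq entry, 267 are classed there as lncRNA and 10 as protein coding, and 63 carry another symbol. Among the 10, 8 have a coding symbol of their own, including NBDY (LINC01420), SMIM26 (LINC00493), SMIM30 (LINC00998), MTLN (LINC00116) and SMIM27 (TOPORS-AS1), all of which encode small proteins. For HNRNPU-AS1 and TNRC6C-AS1 the present entry is HNRNPU and TMC6, which the files list separately. A further 25 are now named as divergent transcripts. The members are therefore called here by their symbols in the files.

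Most members were scarce. Their mean FPKM had a median of 2.54, with quartiles of 1.59 and 6.13, whereas the median of all tested genes was 12.3. Only 42 members averaged over 10 FPKM and 9 over 50, while 111 averaged under 2. The spread between libraries of a group depended on level: the median coefficient of variation was 4.48% for members over 10 FPKM and 17.3% for those under 2 FPKM. Members just inside the level filter were LINC00266-3 (mean 1.01 FPKM), FOXD3-AS1 and EGFR-AS1, and just outside it were APOBEC3B-AS1 (mean 1.00 FPKM), SP2-AS1 and RNF139-AS1.

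**Figure D1:**
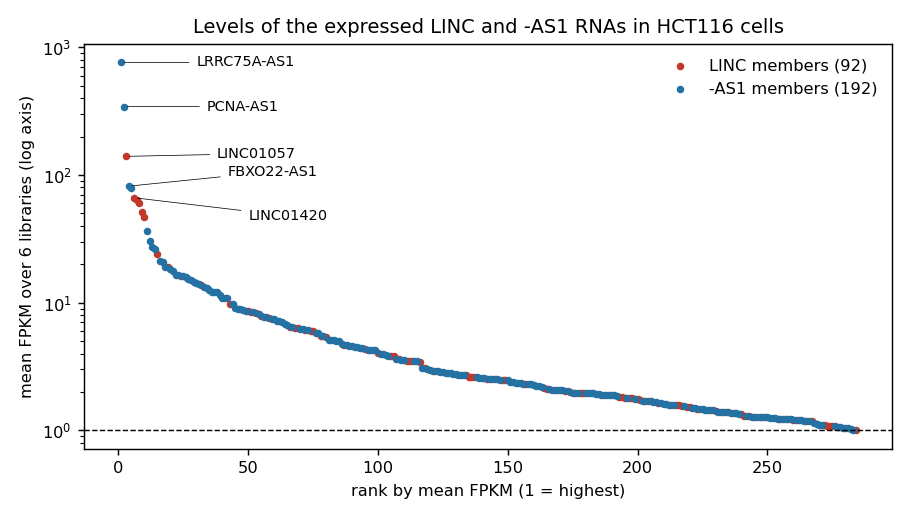
Mean FPKM over 6 libraries (log axis) of the 284 members, ranked from highest to lowest, with LINC RNAs in red and -AS1 RNAs in blue; the dashed line is the level filter of 1 FPKM. A few RNAs stand far above the rest, from LRRC75A-AS1 at 763 FPKM down to LINC01420 at 66.4 FPKM in the sixth place, and the median member is at 2.54 FPKM.

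The most abundant member was LRRC75A-AS1, now SNHG29, a host gene of small nucleolar RNAs on chromosome 17. Its level was 652 and 633 FPKM in the parent libraries, 842 and 790 FPKM with siLINC01534-1, and 825 and 835 FPKM with siLINC01534-2. All 4 siLINC01534 libraries lay above both parent libraries. The log2 change was 0.34 (SE 0.04, adjusted p = 0.00203) with siLINC01534-1 and 0.37 (SE 0.04, adjusted p = 0.00498) with siLINC01534-2, and the difference between the siRNAs was -0.03 with a 95% interval from -0.13 to 0.08. LINC01057, now SLC44A3-AS1, followed PCNA-AS1 in level. It measured 117 and 119 FPKM in parent cells, 161 and 163 FPKM with siLINC01534-1, and 142 and 139 FPKM with siLINC01534-2, so the 3 groups did not overlap. FBXO22-AS1 measured 72 and 63.6 FPKM in parent cells, 86.1 and 98.3 FPKM with siLINC01534-1, and 81.2 and 90 FPKM with siLINC01534-2. It rose with both siRNAs combined by 0.38 (SE 0.08, adjusted p = 0.0171), a call that was lost without the second parent library (0.30) or the second siLINC01534-2 library (0.35). LINC01420 encodes NBDY, a small protein of the mRNA decapping machinery, and its FPKM of 62.8 and 54 in parent cells stood below the 78.8 and 74.2 with siLINC01534-1 and the 63.4 and 65.3 with siLINC01534-2.

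Counted over all members, 31 rose and 24 fell with both siRNAs combined against parent. That was 10.9% higher and 8.45% lower, against 17.1% higher and 20.1% lower among all 12203 genes tested. With siLINC01534-1, 46 members rose and 28 fell, 16.2% and 9.86%, against 21.8% and 24.5% of all genes. With siLINC01534-2, 6 rose and 21 fell, 2.11% and 7.39%, against 11.1% and 11.8% of all genes. Directly between the siRNAs, 51 members were higher in the libraries labelled siLINC01534-1 and 17 were lower, 18% and 5.99%, against 19.5% and 22.3% of all genes. Leaving out 1 library at a time gave 24 to 46, 40 to 71, 12 to 21 and 39 to 64 members called in the 4 comparisons, in place of 55, 74, 27 and 68. With the 4 siLINC01534 libraries treated as 1 group, whose spread then includes any gap between the siRNAs, 4 members passed against parent: LINC00326, LRRC75A-AS1, OIP5-AS1 and PRC1-AS1. In each comparison with parent the share of members called was thus below the background in both directions, and between the siRNAs the share lower was 5.99% beside 22.3%. By kind of symbol, 20 LINC RNAs rose and 5 fell with siLINC01534-1, and 26 -AS1 RNAs rose and 23 fell.

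Level moved with these shares. Among members over 10 FPKM, 52.4% passed the threshold with siLINC01534-1, beside 55.3% of all tested genes over 10 FPKM. Among those from 2 to 10 FPKM the shares were 29.0% and 38.9%, and among those under 2 FPKM they were 12.6% and 19.1%. With both siRNAs combined the shares over 10 FPKM were 50% of members and 47.4% of all genes, and with siLINC01534-2 they were 31.0% and 30.7%. In these 2 comparisons the lower share of members was thus not seen among abundant RNAs, whereas from 2 to 10 FPKM it was 17.6% beside 27.3% and 9.16% beside 14.8%, and under 2 FPKM 9.91% beside 11.7% and 1.8% beside 4.56%. The shares rose with level in both sets, and the difference between the sets was not tested. The median log2 change of the members was 0.12 with siLINC01534-1 (0.00 for all genes) and 0.00 with siLINC01534-2 (0.00 for all genes). Of the 284 members, 42 had a mean under 1 FPKM in some group, so that they passed the filter through the groups where they were higher. LINC00944, LINC00346, TNKS2-AS1, LINC00920 and P4HA2-AS1, described below, are among these 42. Without those 42, 40 of the remaining members rose and 27 fell with siLINC01534-1, and 6 rose and 19 fell with siLINC01534-2. Over all tested genes 21.8% rose and 24.5% fell with siLINC01534-1, and 11.1% and 11.8% with siLINC01534-2. The same cut was not made among all genes, so these counts are a description only.

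**Figure D2:**
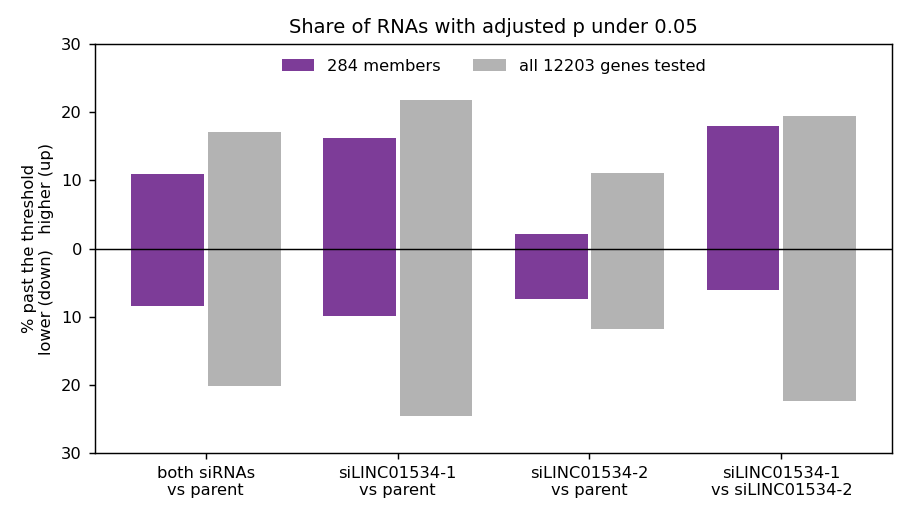
Percent of RNAs past the threshold (adjusted p under 0.05, limma), higher above the line and lower below it, for the 284 members in purple and for all 12203 tested genes in grey, in 4 comparisons. The purple bars are shorter than the grey ones throughout, most clearly for members lower in siLINC01534-1 than in siLINC01534-2 (5.99% beside 22.3%).

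LINC00152, now CYTOR, stood among the largest increases. It is known for its high level in many carcinomas, and its gene spans 87754300 to 87936259 on the plus strand of chromosome 2 (GRCh37). The level was 30.4 and 30.2 FPKM in parent cells, 68.8 and 68.5 FPKM with siLINC01534-1, and 41.6 and 41.4 FPKM with siLINC01534-2. The replicates nearly coincided and the groups were far apart, with means 2.26 and 1.37 times the parent mean. The log2 change was 1.15 (SE 0.03, adjusted p = 4.01e-05) with siLINC01534-1 and 0.44 (SE 0.03, adjusted p = 0.00169) with siLINC01534-2. A near-identical copy, MIR4435-2HG, lies on the same chromosome, and the reads of the copies may have been split between them by the counting. MIR4435-2HG itself measured 18 and 24.7 FPKM in parent cells, 40.7 and 41.1 FPKM with siLINC01534-1, and 17.4 and 20.4 FPKM with siLINC01534-2.

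LINC00346, now PRECSIT, is a p53-regulated RNA of chromosome 13. Its FPKM was 0.84 and 0.956 in parent cells, 3.62 and 3.12 with siLINC01534-1, and 1.35 and 1.5 with siLINC01534-2. The log2 change was 1.20 (SE 0.11, adjusted p = 0.000839) with the first siRNA and 0.35 (SE 0.11, adjusted p = 0.0784) with the second. LINC00346 had a parent mean under 1 FPKM and passed the level filter through the siLINC01534 libraries. Its tests compare those same libraries with parent, so they are a description only. LINC00963 of chromosome 9 showed the same order of groups, with 4.13 and 3.84 FPKM in parent cells, 9.28 and 8.17 FPKM with siLINC01534-1, and 5.69 and 4.9 FPKM with siLINC01534-2. Its log2 change with siLINC01534-1 was 0.96 (SE 0.10, adjusted p = 0.00102), and with siLINC01534-2 it was 0.33 (SE 0.10, adjusted p = 0.0598). For both RNAs the siLINC01534-2 libraries lay between parent and siLINC01534-1, without passing the threshold against parent.

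The promoters of these 3 RNAs are shown because each holds the AP-1 motif TGANTCA, the site of FOS and JUN proteins, within 250 bases before to 50 bases after the RefSeq start. Capitals mark the motif, and each sequence reads 5′ to 3′ on the strand of the gene, from RefSeq GRCh38.p14, placed here in GRCh37 by an exact match.
LINC00152, chr2:87754696-87754995, plus strand: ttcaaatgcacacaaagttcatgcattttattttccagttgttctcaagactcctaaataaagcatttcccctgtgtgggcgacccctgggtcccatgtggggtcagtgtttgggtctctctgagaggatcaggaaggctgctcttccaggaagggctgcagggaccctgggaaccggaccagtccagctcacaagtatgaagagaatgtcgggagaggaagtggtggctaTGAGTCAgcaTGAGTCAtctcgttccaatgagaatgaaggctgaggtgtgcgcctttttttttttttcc
LINC00346, chr13:111522606-111522905, minus strand: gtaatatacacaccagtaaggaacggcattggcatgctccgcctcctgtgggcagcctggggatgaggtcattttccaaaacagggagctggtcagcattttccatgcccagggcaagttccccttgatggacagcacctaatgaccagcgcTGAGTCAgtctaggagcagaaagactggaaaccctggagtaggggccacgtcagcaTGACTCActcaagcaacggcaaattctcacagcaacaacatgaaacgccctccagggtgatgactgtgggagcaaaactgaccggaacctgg
LINC00963, chr9:132250689-132250988, plus strand: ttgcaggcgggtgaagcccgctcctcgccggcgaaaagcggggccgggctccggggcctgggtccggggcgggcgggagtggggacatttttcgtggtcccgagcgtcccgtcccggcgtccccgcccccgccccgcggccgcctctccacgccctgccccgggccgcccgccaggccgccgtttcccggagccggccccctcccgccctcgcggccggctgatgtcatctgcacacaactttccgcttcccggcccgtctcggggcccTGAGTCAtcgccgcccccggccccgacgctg

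Promoter entries were found for 208 members. TGANTCA, searched on both strands, was in 19 of them (9.13%) and in 7.71% of all 35116 promoters. It was in 6 of the 33 members with an entry that rose with siLINC01534-1 and in 0 of the 23 that fell, and with siLINC01534-2 in 1 of 4 and 0 of 17. The other motifs searched on both strands were TGATGNAA (1.44% of members, 3.62% of all promoters), TGACGTCA (3.85% and 1.85%), TTTCCCGC (2.4% and 1.63%), TTTGAA (6.25% and 15.2%) and CCAAT (37.5% and 34.6%). The search also took in CCGGAAG (15.9% and 10.3%), CCACG (47.1% and 38.1%), TGACNNNGC (17.8% and 13.3%), AAGATGG (8.17% and 5.84%) and GCGCNTGCG (12.5% and 7.47%). Of the 33 that rose and the 23 that fell with siLINC01534-1, CCAAT was in 16 and 11, CCACG in 16 and 12, TGACNNNGC in 9 and 4, CCGGAAG in 4 and 2, and GCGCNTGCG in 4 and 4. TTTGAA was in 1 and 3, TTTCCCGC in 0 and 2, AAGATGG in 1 and 1, and TGATGNAA and TGACGTCA each in 1 and 0. The AP-1 motif was singled out after its matches were seen, and a match in these letters does not show binding.

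ZFPM2-AS1, on chromosome 8, measured 12.2 and 10.9 FPKM in parent cells, 23.3 and 23.0 FPKM with siLINC01534-1, and 15.2 and 14.8 FPKM with siLINC01534-2. It rose by 0.95 (SE 0.06, adjusted p = 0.000256) and 0.36 (SE 0.06, adjusted p = 0.0151) on the log2 scale. Its namesake ZFPM2, a zinc finger cofactor, stayed under 1 FPKM in every library. LINC00944, on chromosome 12, had the largest log2 change with siLINC01534-1 but rested on few reads. Its 0.478 and 0.48 FPKM in parent cells were worth 2 and 2 reads, the smallest whole numbers that the values allow. The 3.53 and 3.09 FPKM with siLINC01534-1 were worth 13 and 13 reads, and the 0.832 and 2.08 FPKM with siLINC01534-2 were worth 3 and 9 reads. The ratio of siLINC01534-1 to parent per read worth was 6.89, with an exact 95% interval from 2.39 to 27.2 for counting error only. That interval takes these smallest numbers as the true reads. LINC00944 passed the level filter through the siLINC01534 libraries, so its interval and calls are a description only. MID1IP1-AS1, on the X chromosome, rose from 1.21 and 1.42 FPKM to 4.60 and 3.02 FPKM with siLINC01534-1, by 1.03 (SE 0.22, adjusted p = 0.013), and measured 3.05 and 1.96 FPKM with siLINC01534-2. With both siRNAs combined, LINC00944 and MID1IP1-AS1 lost their calls when either parent library was left out, at 1.11 each time for LINC00944 and at 0.74 and 0.87 for MID1IP1-AS1; MID1IP1-AS1 also lost it without the first siLINC01534-1 library (0.69) or the first siLINC01534-2 library (0.69).

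**Figure D3:**
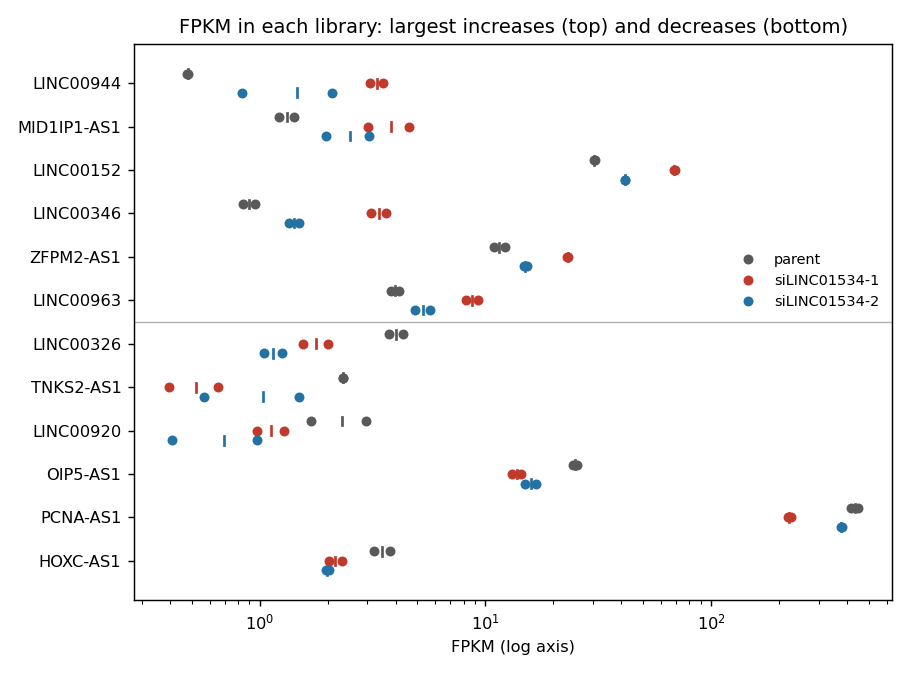
FPKM (log axis) in each library for the 6 largest increases, above the line, and the 6 largest decreases, below it, among members past the threshold with both siRNAs combined; points are libraries, short bars are group means, and colours are groups. Every siLINC01534 library lies on one side of both parent libraries, the increases are larger with siLINC01534-1 in red (LINC00152 at 68.8 and 68.5 FPKM), and OIP5-AS1 lies between 13.2 and 16.8 FPKM with both siRNAs. LINC00944, LINC00346, TNKS2-AS1 and LINC00920 passed the level filter through the groups where they were higher.

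Of the decreases, that of LINC00326 was the largest with both siRNAs combined, at -1.04 (SE 0.11, adjusted p = 0.00197). Its gene lies on chromosome 6 from 133275396 to 133428549, plus strand. Its FPKM was 4.32 and 3.74 in parent cells, 2.01 and 1.56 with siLINC01534-1, and 1.25 and 1.04 with siLINC01534-2. In the smallest whole numbers of reads these were 44 and 38, 18 and 16, and 11 and 11. It changed by -0.85 (SE 0.13, adjusted p = 0.00405) and -1.23 (SE 0.13, adjusted p = 0.00397), and the difference between the siRNAs was 0.37 (95% interval 0.05 to 0.69, adjusted p = 0.0667).

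OIP5-AS1, known as Cyrano, is a conserved cytoplasmic RNA with a site for miR-7, a microRNA whose decay it promotes. It lies on chromosome 15 from 41576156 to 41614590, plus strand. The FPKM was 25.4 and 24.5 in parent cells, 13.2 and 14.5 with siLINC01534-1, and 15 and 16.8 with siLINC01534-2. Neither siRNA group overlapped parent, and the means were 0.553 and 0.638 times the parent mean. The log2 change was -0.81 (SE 0.07, adjusted p = 0.000728) and -0.62 (SE 0.07, adjusted p = 0.0054). OIP5, the gene it is named after, changed by -0.11 (SE 0.07) and -0.24 (SE 0.07) and did not pass the threshold with either. The longest annotated transcript of OIP5-AS1, 8881 bases, held 3 matches to the miR-7 seed (bases 2 to 8 of the microRNA). They are shown because that microRNA is the known partner of this RNA. Capitals mark the seed and its matches; the microRNA is from RefSeq and the sites are from GRCh37.
hsa-miR-7-5p: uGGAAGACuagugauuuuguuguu
OIP5-AS1, chr15:41590609-41590635, plus strand: tcagggtttaaaaaaaatGTCTTCCag
OIP5-AS1, chr15:41592772-41592798, plus strand: aacaacaaaatcaccaatGTCTTCCat
OIP5-AS1, chr15:41598052-41598078, plus strand: atatcctgaatatagtttGTCTTCCcc

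PCNA-AS1 was the member with the largest fall in FPKM. It measured 418 and 447 FPKM in parent cells, 226 and 219 FPKM with siLINC01534-1, and 375 and 378 FPKM with siLINC01534-2. The log2 change was -0.96 (SE 0.04, adjusted p = 9.82e-05) with the first and -0.20 (SE 0.04, adjusted p = 0.0278) with the second. PCNA, the sliding clamp of DNA replication, measured 253 and 264 FPKM, then 141 and 131 FPKM, then 239 and 217 FPKM. The ratio of PCNA-AS1 to PCNA stayed between 1.57 and 1.75 in the 6 libraries. The strand setting of the counting is not given in the sources used here, so reads from PCNA and from its antisense gene cannot be told apart in these values.

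Of the other large decreases, TNKS2-AS1 (now TNKS2-DT) measured 2.34 and 2.33 FPKM in parent cells, 0.654 and 0.395 FPKM with siLINC01534-1, and 1.5 and 0.565 FPKM with siLINC01534-2. HOXC-AS1, from the HOXC cluster of homeobox genes, fell from 3.20 and 3.79 FPKM to between 1.97 and 2.31 FPKM in the 4 siLINC01534 libraries, by 0.50 (SE 0.11, adjusted p = 0.0134) and 0.58 (SE 0.11, adjusted p = 0.0181) on the log2 scale. LINC00920 went from 2.95 and 1.69 FPKM to 1.28 and 0.977 FPKM with siLINC01534-1, and to 0.976 and 0.407 FPKM with siLINC01534-2. These are low values: the reads of LINC00920 were 21 and 12, 8 and 7, and 6 and 3. TNKS2-AS1 and LINC00920 passed the level filter through the groups where they were higher, so their calls are a description only. With both siRNAs combined, TNKS2-AS1 lost its call without either parent library (-0.94 each time) or without the second siLINC01534-1 library (-0.88), HOXC-AS1 without the second parent library (-0.45), and LINC00920 without the first parent library (-0.52), either siLINC01534-1 library (-0.84 and -0.74) or the second siLINC01534-2 library (-0.67).

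Other members separated the siRNAs. The largest difference was that of LINC00657, now NORAD, an abundant cytoplasmic RNA induced by DNA damage. It lies on chromosome 20 from 34633540 to 34638940, minus strand. Its level was 39.9 and 37.1 FPKM in parent cells, 78.6 and 82.0 FPKM with siLINC01534-1, and 35.5 and 37.2 FPKM with siLINC01534-2. Only the siLINC01534-1 libraries stood apart. The log2 change was 1.04 (SE 0.05, adjusted p = 0.000133) with siLINC01534-1 and -0.08 (95% interval -0.21 to 0.05) with siLINC01534-2, and the difference between them was 1.12 (SE 0.05, adjusted p = 0.00016).

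OTUD6B-AS1, a divergent RNA of chromosome 8, was also highest with siLINC01534-1. It measured 10.2 and 10.4 FPKM in parent cells, 16.7 and 17.0 FPKM with siLINC01534-1, and 9.63 and 8.43 FPKM with siLINC01534-2. The siRNAs differed by 0.83 (SE 0.07, adjusted p = 0.000716). In the other direction, SGOL1-AS1 measured 5.01 and 5.51 FPKM in parent cells, 1.84 and 2.41 FPKM with siLINC01534-1, and 5.81 and 5.16 FPKM with siLINC01534-2. The difference between the siRNAs was -1.06 (SE 0.12, adjusted p = 0.00179), and SGOL1, the shugoshin that protects cohesin at centromeres, differed by -0.78 (SE 0.12, adjusted p = 0.00517). STARD7-AS1, whose namesake encodes a lipid transfer protein of mitochondria, went from 8.38 and 8.75 FPKM to 4.19 and 5.31 FPKM with siLINC01534-1 and stayed at 8.06 and 8.27 FPKM with siLINC01534-2. With siLINC01534-2, SGOL1-AS1 and STARD7-AS1 changed by 0.05 (95% interval -0.24 to 0.34) and -0.06 (95% interval -0.31 to 0.19).

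Further members differed between the siRNAs with the siLINC01534-2 libraries farther from parent. SRP14-AS1 starts next to SRP14, a subunit of the signal recognition particle, and measured 4.88 and 4.29 FPKM in parent cells, 4.67 and 4.94 FPKM with siLINC01534-1, and 2.55 and 2.56 FPKM with siLINC01534-2. It changed by -0.65 (SE 0.08, adjusted p = 0.00675) with siLINC01534-2, and the siRNAs differed by 0.71 (SE 0.08, adjusted p = 0.00218). LINC01468, now LNCAROD, fell from 12.4 and 11.2 FPKM to 7.50 and 6.88 FPKM with siLINC01534-2, by 0.64 (SE 0.07, adjusted p = 0.00464), and measured 10.1 and 10.2 FPKM with siLINC01534-1. SMAD1-AS1 rose from 10.5 and 10 FPKM to 16.0 and 14.9 FPKM with siLINC01534-2, by 0.55 (SE 0.06, adjusted p = 0.00474), and its 11.3 and 10.7 FPKM with siLINC01534-1 lay close to parent. THAP9-AS1 rose with each siRNA, from 27.1 and 25.3 FPKM to 30.8 and 30.3 FPKM and to 34.6 and 35.7 FPKM, and the siRNAs differed by -0.20 (SE 0.05, adjusted p = 0.0224). P4HA2-AS1 was near the level filter, with 1.1 and 0.947 FPKM in parent cells, 0.715 and 0.939 FPKM with siLINC01534-1, and 1.64 and 2.28 FPKM with siLINC01534-2. It differed between the siRNAs by -0.69 (SE 0.16, adjusted p = 0.0183, limma). That call was lost without the first siLINC01534-1 library (-0.60) or the second siLINC01534-2 library (-0.53). P4HA2-AS1 averaged under 1 FPKM with siLINC01534-1 and passed the level filter through the other libraries, so its test is a description only.

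**Figure D4:**
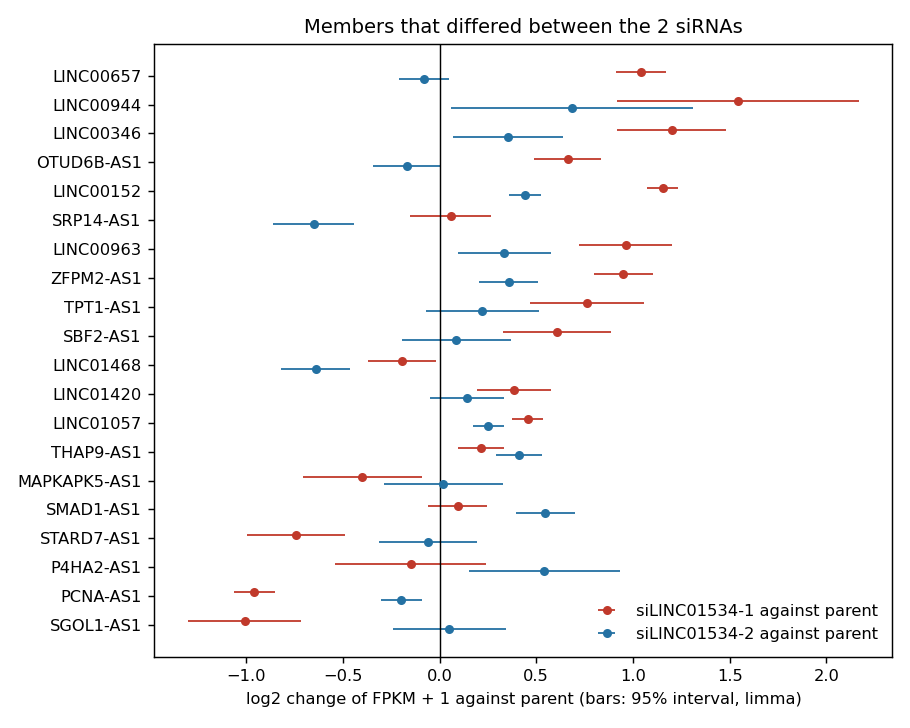
Log2 change of FPKM + 1 against parent for the 20 named members that differed between the siRNAs, with siLINC01534-1 in red and siLINC01534-2 in blue; points are estimates over 2 libraries a group and bars are 95% intervals from limma. LINC00657 has the largest gap (1.04 beside -0.08), and SRP14-AS1 and SMAD1-AS1 are among those that moved with siLINC01534-2 and not past the threshold with siLINC01534-1. Some of the members were named for the size of the difference between the siRNAs. LINC00944, LINC00346 and P4HA2-AS1 passed the level filter through the groups where they were higher.

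A list of 25 lncRNAs with described roles was set beside these results, and 14 of its genes were members. With siLINC01534-1, 6 of the 14 rose (LINC00657, LINC00152, LINC00963, TPT1-AS1, SBF2-AS1 and LINC00467) and 3 fell (OIP5-AS1, FOXP4-AS1 and MAPKAPK5-AS1). With siLINC01534-2, LINC00152 rose and OIP5-AS1 fell, and the other 12 did not pass the threshold. Over all tested genes 21.8% were higher and 24.5% lower with siLINC01534-1, and over all members 16.2% and 9.86%; the list was chosen with earlier results known. TPT1-AS1 measured 1.72 and 1.73 FPKM in parent cells, 3.83 and 3.43 FPKM with siLINC01534-1, and 1.91 and 2.46 FPKM with siLINC01534-2. SBF2-AS1 measured 1.34 and 1.62 FPKM, then 2.65 and 2.91 FPKM, then 1.74 and 1.53 FPKM. Both thus stood apart from parent with siLINC01534-1 and came close to it, or overlapped it, with siLINC01534-2. LINC01021, now PURPL, a p53 target, ranged from 3.30 to 4.25 FPKM over the 6 libraries and changed by 0.14 (SE 0.10) and 0.01 (SE 0.10). LINC00662, GABPB1-AS1, PSMD5-AS1 and MCM3AP-AS1 did not pass the threshold against parent with either siRNA.

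Among 20 tested lncRNAs named otherwise, 13 were higher and 1 was lower with siLINC01534-1, and 7 were higher and 2 lower with siLINC01534-2. The shares over all genes were 21.8% and 24.5% with the first and 11.1% and 11.8% with the second, and the list was chosen by hand. Several of these RNAs were abundant, and of all tested genes over 10 FPKM, 55.3% passed with siLINC01534-1 and 30.7% with siLINC01534-2. UCA1 was higher with siLINC01534-1 (log2 change 0.31) and lower with siLINC01534-2 (-0.90). NEAT1, the scaffold of paraspeckles, measured 64.4 and 62.5 FPKM in parent cells, 196 and 187 FPKM with siLINC01534-1, and 59.6 and 63.7 FPKM with siLINC01534-2. GAS5, a small nucleolar RNA host gene like LRRC75A-AS1, measured 240 and 263 FPKM in parent cells and 476 to 526 FPKM in the 4 siLINC01534 libraries.

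Of the 8 members with a coding symbol of their own, 3 rose with siLINC01534-1 (LINC00493, LINC00116 and LINC01420), 2 fell with siLINC01534-2 (LINC00998 and TOPORS-AS1), and 3 passed the threshold with neither (FAM83H-AS1, LINC00094 and MMP24-AS1). Over all tested genes 21.8% rose and 24.5% fell with siLINC01534-1, and 11.1% and 11.8% with siLINC01534-2. LINC00493, LINC00998 and LINC01420 averaged over 50 FPKM. Of all tested genes over 10 FPKM, 55.3% and 30.7% passed with the 2 siRNAs. LINC00493 (SMIM26) measured 53.6 and 46.1 FPKM in parent cells, 82.6 and 78.2 FPKM with siLINC01534-1, and 63.7 and 56.2 FPKM with siLINC01534-2, and rose with siLINC01534-1 by 0.68 (SE 0.09, adjusted p = 0.00276). LINC00116 (MTLN, a mitochondrial small protein) rose from 7.07 and 7.16 FPKM to 10.7 and 11.2 FPKM with siLINC01534-1, by 0.56 (SE 0.12, adjusted p = 0.014). LINC00998 (SMIM30) fell from 62.2 and 61.7 FPKM to 54.3 and 50.8 FPKM with siLINC01534-2, by 0.23 (SE 0.04, adjusted p = 0.0178). TOPORS-AS1 (SMIM27) fell from 5.04 and 3.99 FPKM to 2.54 and 3.04 FPKM with siLINC01534-2, by 0.54 (SE 0.13, adjusted p = 0.0361). The 4 given with values here were named after those were seen.

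Each -AS1 RNA was next set beside the gene it is named after. That gene was in the files for 190 of the 192 -AS1 members and was tested for 164. With siLINC01534-1, both RNAs passed the threshold in 26 pairs: 10 were higher together, 9 lower together and 7 moved in opposite directions. The -AS1 RNA alone passed in 17 pairs, the other gene alone in 54, and neither in 67. With siLINC01534-2, both passed in 5 pairs, of which 4 were lower together and 1 was opposite. The -AS1 RNA alone passed in 10 pairs, the other gene alone in 29, and neither in 120. Over all tested genes 21.8% were higher and 24.5% lower with siLINC01534-1, and 11.1% and 11.8% with siLINC01534-2. Whether pairs passed together more often than unrelated genes was not tested.

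Pairs that fell together with siLINC01534-1 included PCNA-AS1 with PCNA, SGOL1-AS1 with SGOL1, STARD7-AS1 with STARD7, and PRC1-AS1 with PRC1, a gene of the mitotic spindle midzone. SGOL1-AS1, STARD7-AS1 and PRC1-AS1 share 593, 439 and 1892 exonic bases with these genes, and PRC1-AS1 stayed between 0.21 and 0.25 times PRC1. The strand setting of the counting is not given, so reads of such overlapping genes cannot be told apart, here or in the counts above. The widest opposite pair was OTUD6B-AS1, which rose by 0.66 while OTUD6B, a deubiquitinase gene, fell from 22.1 and 19.8 FPKM to 8.86 and 8.46 FPKM, a log2 change of -1.18 (SE 0.07, adjusted p = 0.000218). With siLINC01534-2, OTUD6B measured 23.1 and 21.2 FPKM. TNKS2-AS1, which starts 117 bases from TNKS2, changed by -1.13 (SE 0.24, adjusted p = 0.0136, limma) with siLINC01534-1. That call was lost without either parent library or the second siLINC01534-1 library (-1.13, -1.13 and -1.01). TNKS2-AS1 passed the level filter through the groups where it was higher, so its test is a description only. TNKS2, a tankyrase gene, rose by 0.38 (SE 0.05, adjusted p = 0.00223, limma), from 8.71 and 8.52 FPKM to 11.4 and 11.6 FPKM. WAC-AS1 measured 26.0 and 26.4 FPKM in parent cells, 14.7 and 15.7 FPKM with siLINC01534-1, and 23.0 and 21.1 FPKM with siLINC01534-2, and WAC rose by 0.17 (SE 0.05, adjusted p = 0.047) and 0.22 (SE 0.05, adjusted p = 0.0411). MID1IP1-AS1 and MID1IP1, a regulator of lipid synthesis, rose together with siLINC01534-1, by 1.03 and 0.18.

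**Figure D5:**
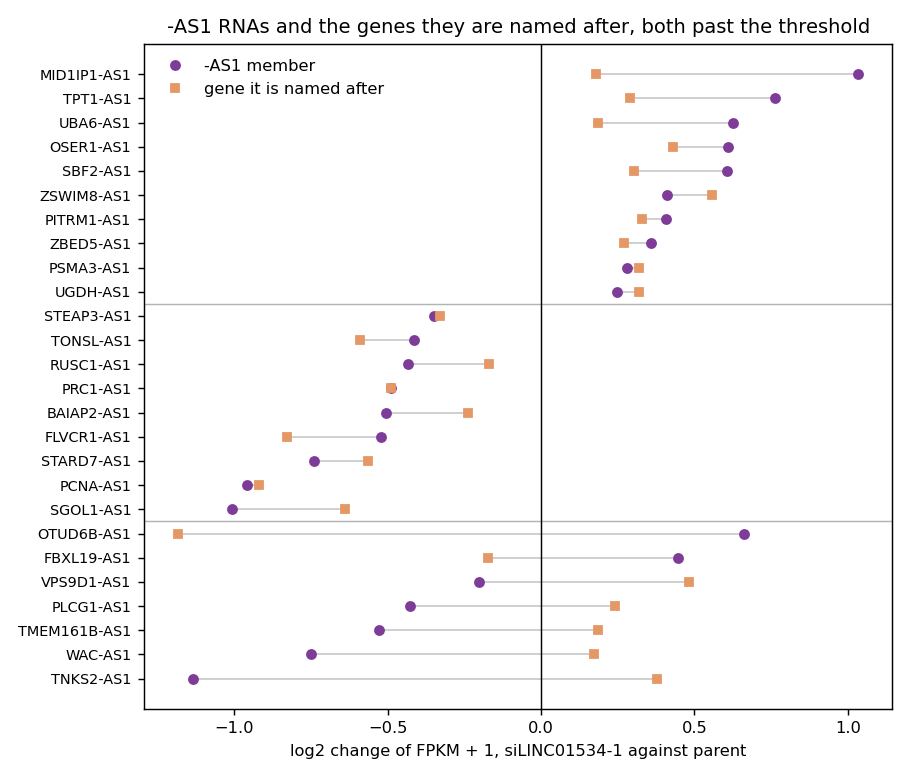
Log2 change with siLINC01534-1 against parent of the 26 pairs in which the -AS1 RNA (purple circles) and the gene it is named after (orange squares) both passed the threshold; from top to bottom, 10 pairs higher together, 9 lower together and 7 opposite. The OTUD6B pair spans the widest gap, from 0.66 for OTUD6B-AS1 to -1.18 for OTUD6B, and the circle and square of PRC1 and PCNA nearly coincide. The strand setting of the counting is not given, so reads of pairs with overlapping exons cannot be told apart.

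In GENCODE on GRCh37, coordinates were found for 269 members. Of the -AS1 members, 60 started within 1000 bases of the start of their namesake on the other strand, and 121 overlapped it otherwise. Of the 7 opposite pairs, OTUD6B-AS1, TNKS2-AS1, WAC-AS1, TMEM161B-AS1 and FBXL19-AS1 were of the first kind, and PLCG1-AS1 and VPS9D1-AS1 of the second. In the first kind 10 of 60 rose and 9 fell with siLINC01534-1, and in the second 15 of 121 rose and 12 fell. Of the 78 LINC members with no coding gene starting close by on the other strand, 16 rose and 4 fell. Over all tested genes 21.8% were higher and 24.5% lower in that comparison, and the classes were not tested against each other. Where exons overlapped by over 200 bases with a tested namesake, which held for 82 pairs, the -AS1 RNA had a median of 0.273 times the mean FPKM of that gene, with a range from 0.0107 to 22.4. ENO1-AS1, at 0.000983 times the mean FPKM of the glycolytic enzyme gene ENO1, shared 126 exonic bases with it.

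Finally, the members were searched for the 7-mers that pair with bases 2 to 8 of the antisense strand of each siRNA. For siLINC01534-1 the 7-mer is GAATAAA, which contains the polyadenylation signal AATAAA, and for siLINC01534-2 it is TTCGAGT. The longest transcript of 66 of 269 members held GAATAAA, and 10 of the 66 (15.2%) fell with siLINC01534-1, beside 16 of the 203 without it (7.88%). Rises with siLINC01534-1 numbered 13 of the 66 and 28 of the 203. Among all tested genes with a transcript, 34.0% held it, and 35.8% of those fell with siLINC01534-1 beside 19.4% of those without it. Of these genes, 686 of 4040 with it rose, beside 1925 of 7857 without it. With siLINC01534-2, 7.58% of the members with GAATAAA fell beside 7.39% of those without it. The same shares of all tested genes were 12.2% and 11.8%. Member transcripts with it were longer, with a median of 3570 bases against 2124 bases. Over all tested genes the medians were 4896.5 and 3198 bases. The median log2 change of the members with siLINC01534-1 was 0.10 with the 7-mer and 0.12 without it. Among all tested genes these medians were -0.09 and 0.03. OIP5-AS1 held 4 copies and fell, LINC00152 held 2 and rose, and LINC00657 held 0. TTCGAGT was found in 5 members, of which 1 fell with siLINC01534-2, beside 7.2% of the members without it. Among all tested genes 14.2% of those with it and 11.8% of those without it fell with siLINC01534-2. The part of such matches in the changes was not tested.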

How the data were processed

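The members and lists were chosen with earlier results of these data known. The authors extracted RNA (RNeasy in the labels, miRNeasy in the methods), made stranded poly(A) libraries and sequenced 75-base single-end reads. Per the submitters' processing notes, TopHat2 2.0.13, Bowtie2 2.2.3, SAMtools 0.1.19, Cufflinks 2.2.1 and hg19 were used. The deposited values are FPKM of 26255 symbols per library; the annotation and strand setting are not given in the sources used here. Groups came from the labels, which number 2 replicates per group where the methods describe triplicates.

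From these values log2(FPKM + 1) was fitted with limma 3.58.1 (R 4.3.3; lmFit, eBayes with trend) with 1 mean per group over the 12203 genes whose mean reached 1 FPKM, after a test on simulated data. Read numbers of scarce RNAs are the smallest whole numbers that fit the 6 values within 0.05 of a read. Positions came from GENCODE release 44 on GRCh37, and names and promoters from RefSeq GRCh38.p14. Members named are the largest changes past the threshold with groups that do not overlap (6 each way for both siRNAs, 4 each way for the other comparisons), the 6 most abundant (1 is not reported here), the lncRNAs of a list, those nearest the filter, and namesakes of -AS1 members. Alternatives changed the pseudocount, filter, scaling, trend, replicate block, grouping of siRNAs, and the libraries used. Same-numbered libraries did not deviate together (correlations 0.114, 0.027 and -0.0456), so the numbers were not taken as pairs. Python 3.11.15 was used for tables.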

Additional observations from a re-analysis of the deposited data

Results flagged for a closer look

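The difference between the siRNAs, siLINC01534-1 minus siLINC01534-2 on the log2(FPKM + 1) scale, passed the threshold of adjusted p under 0.05 (limma) for 20 of the members described above. Some of these were named for the size of that difference, so their number is not a finding. LINC00944, LINC00346 and P4HA2-AS1 passed the level filter through the groups where they were higher, so their differences are a description only. Over all 284 members 68 passed, and over all tested genes 19.5% were higher and 22.3% lower. Higher with siLINC01534-1 were LINC00657 (1.12), LINC00944 (0.86), LINC00346 (0.85), OTUD6B-AS1 (0.83), LINC00152 (0.71), SRP14-AS1 (0.71), LINC00963 (0.63), ZFPM2-AS1 (0.59), TPT1-AS1 (0.54), SBF2-AS1 (0.52), LINC01468 (0.45), LINC01420 (0.25) and LINC01057 (0.20). Lower with siLINC01534-1 were THAP9-AS1 (-0.20), MAPKAPK5-AS1 (-0.42), SMAD1-AS1 (-0.45), STARD7-AS1 (-0.68), P4HA2-AS1 (-0.69), PCNA-AS1 (-0.76) and SGOL1-AS1 (-1.06). The call of LINC00944 was lost without either parent library (0.86 each time), either siLINC01534-1 library (0.78 and 0.93) or the first siLINC01534-2 library (0.48), and that of P4HA2-AS1 without the first siLINC01534-1 library (-0.60) or the second siLINC01534-2 library (-0.53). No group had enough libraries for a search for single libraries far from the rest of their group.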

How the results depend on the processing

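Of 636 comparisons of the 55 results on named members with an alternative, 559 kept their direction and side of the threshold, 70 lost their call, 7 gained one and 0 reversed. Of the 55 results, 29 were the same under every alternative. With the 4 siLINC01534 libraries as 1 group, 16 of 31 results lost their call. The count of members changed against parent with both siRNAs, 55, became 4 with the 4 siLINC01534 libraries as 1 group, 31 without the first parent library and 24 without the second, in a range of 24 to 46 with 1 library left out. With siLINC01534-1 the 74 became 49 and 48 without the first and the second parent library, and 40 and 49 without the first and the second siLINC01534-1 library (range 40 to 71). With siLINC01534-2 the 27 became 17 and 12 without a parent library, and 13 and 14 without a siLINC01534-2 library (range 12 to 21). Between the siRNAs the 68 became 39 and 42 without a siLINC01534-1 library, and 42 and 43 without a siLINC01534-2 library (range 39 to 64). A group left with 1 library is assumed to vary like the others. A pseudocount of 0.1, no level filter, rescaling and no trend kept all 4 counts within 1.5 times. The replicate block gave 48, 77, 22 and 58, and the numbers were not taken as pairs. Depth limits the scarce members, 111 of which averaged under 2 FPKM.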
